A study of Mus musculus with 8 samples.

Results

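The 33 genes described here encode the enzymes of mucin-type O-glycosylation together with the fucosyltransferases, sialyltransferases and sulfotransferases that finish such chains, and were taken as a list of names. The list applies no threshold on a measured value, but it was drawn up with earlier results of these data known. Of these 33 genes, 26 had a value in at least 1 of 8 samples, among 13273 genes with a value in all. The samples were intestinal organoids, which are epithelial cultures grown in Matrigel from isolated crypts, in IntestiCult OGM medium. There were 4 WT samples and 4 MG53-TG samples, the latter from mice with global overexpression of MG53 (gene Trim72) and the former from wild type littermates. No drug or injury was applied to these cultures as far as the labels say. The promoter of the transgene, the ages of the animals and whether each culture came from its own animal are not given in the sources used here, so the p-values measure only the spread between these samples. One sentence of the study names the genotypes of this RNA sequencing MG53;Lgr5 and Lgr5, whereas the sample labels say MG53-TG and WT.

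In mucin-type O-glycosylation a polypeptide GalNAc transferase places N-acetylgalactosamine on a serine or threonine of a protein in the Golgi. C1galt1, which needs its chaperone C1galt1c1 (Cosmc), adds galactose to form core 1. Gcnt1 and Gcnt3 branch core 1 into core 2, and B3gnt6 makes core 3 instead. The B3gnt and B4galt enzymes then lengthen the chains, and fucose, sialic acid, sulfate or a terminal GalNAc closes them. These chains make up most of the mass of the gel-forming mucins of goblet cells and of the membrane mucins on the brush border of enterocytes. Several enzymes of the list also act on N-glycans or glycolipids, and Fut8 acts on N-glycans.

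The measured quantity was FPKM, a fragment count scaled to transcript length and to the number of mapped fragments. The deposited tables give an FPKM for each transcript event, and a gene was given the sum over its transcript starts, or over its transcript ends where that mean was higher. FPKM is scaled to length, so levels of different genes are set side by side here, but only roughly. Sums over starts and over ends of a gene can differ. In WT samples Galnt7 was at 32.7 to 38.5 FPKM by starts and at most 0.000205 FPKM by ends. St3gal6 was at 22.7 to 27.5 FPKM by starts and at most 0.0387 FPKM by ends in WT samples. Fold changes are differences in log2(FPKM + 1), which understates changes of low genes, with the standard error (SE) and the Benjamini-Hochberg adjusted p of limma, a linear model fitted over all 10370 genes whose mean FPKM reached 0.5. A gene passed the test at an adjusted p of at most 0.05.

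The MG53-TG organoids had lower levels of 5 of the 7 tested enzymes that start O-glycans and of Gcnt3, the 1 branching enzyme tested, and a higher level of the sialyltransferase St3gal4. Among the 33 enzymes 19 were high enough to be tested, of which 12 fell, 3 rose and 4 did not pass. One of the 12, C1galt1c1, rests on an uncertain row that is described with its values, and 11 fell without it. Over all genes tested, 29.2% fell and 15.4% rose, and 3033 genes fell against 1602 that rose. Of the 19 enzymes, every MG53-TG sample lay below every WT sample in 11, and every MG53-TG sample lay above in 3. The same non-overlap was found below in 29.2% and above in 15.6% of all genes tested. The median log2 fold change was -0.59 over the 19 enzymes and -0.17 over all genes tested. When samples were scaled by median-of-ratios, 2115 genes rose and 2116 fell, the median over all genes moved to -0.01 and that over the 19 enzymes to -0.40. The enzymes then called were the same except that Fut8 no longer passed. In these bulk samples, fewer cells of a type and less RNA per cell cannot be told apart.

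**Figure D1:**
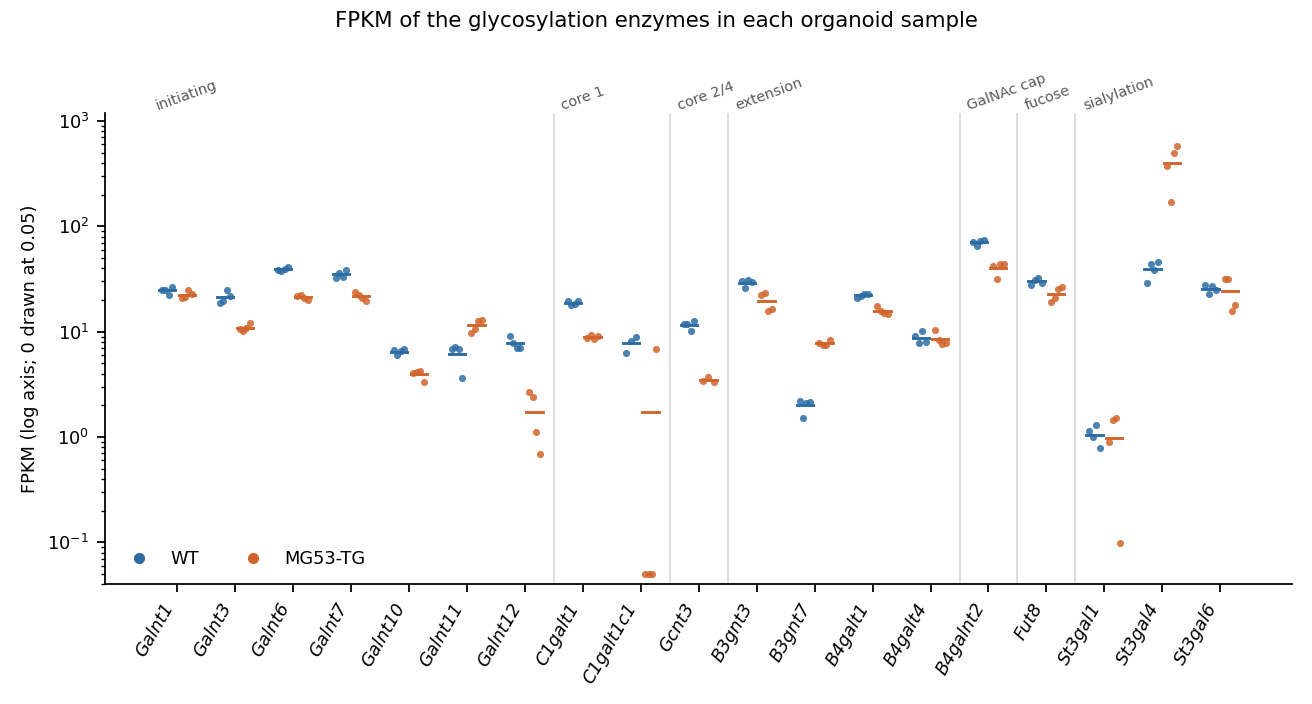
FPKM (log axis) of the 19 tested enzymes in each sample, with WT in blue and MG53-TG in orange, and a bar at the mean of each group. St3gal4 is the highest of the enzymes in the MG53-TG samples, at 168 FPKM or more, and the WT and MG53-TG points do not overlap in 14 of the 19 genes.

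The cell type markers moved as well, where 29.2% of all genes tested fell and 15.4% rose. All 10 enterocyte markers rose, and their summed level was between 928 and 1108 FPKM in the WT and between 11755 and 12778 FPKM among MG53-TG samples. Of 7 tested goblet cell markers 5 fell (Agr2, Muc2, Spink4, Tff3 and Spdef) and Zg16 and Clca1 did not pass, with a summed level of 686 to 778 FPKM among WT samples, against 184 to 506 FPKM in the MG53-TG. The log2 difference of Zg16 was positive, at 1.33 (limma adjusted p = 0.118), from 9.18 to 33.6 FPKM, and Clca1 was at -0.44. The 7 Paneth cell markers above the filter were all lower, from sums of 1234 to 1658 FPKM to sums of 262 to 459 FPKM. Of these, Lyz1, Defa17, Defa24, Mmp7 and Itln1 fell by the test. Defa21 and Defa22, with MG53-TG means of 0 and 0.028 FPKM, reached the filter through the WT samples alone, so no test is given for them. Of 6 stem cell markers 4 fell (Olfm4, Axin2, Ascl2 and Rgmb). Lgr5 (log2 fold change -0.45, limma adjusted p = 0.531) and Smoc2 (-1.01, limma adjusted p = 0.0923) did not pass. Of 7 tested enteroendocrine markers 3 rose (Chga, Chgb and Gip), and Gcg, Neurog3, Cck and Sct did not pass. Of 7 epithelial markers all had values, with 4 lower (Cdh1, Krt8, Krt18 and Cdx2) and 1 higher (Vil1). No tuft cell marker reached the filter, Ptprc was near 0 in every sample, and Cd68 fell. The mesenchymal genes Col1a2 and Col3a1 had no row in WT samples, which counted as 0, and reached the filter through the MG53-TG samples alone, so no test is given for them. In MG53-TG samples 2, 3 and 4 Col1a2 was at 2.07, 0.926 and 0.739 FPKM and Col3a1 at 1.62, 0.904 and 1.25 FPKM, while sample 1 had no row of either and was dropped as missing. The part of these shifts in the changes of the enzymes was not tested. Trim72 itself had no entry in WT samples, and MG53-TG samples 1 to 4 held 16.4, 27.4, 31.9 and 36.5 FPKM. Samples MG53-TG 3 and 4 stood apart from 1 and 2, with correlations of log2 values of 0.939 to 0.954 between the pairs against 0.976 and 0.973 within them, and calls of enzymes that are lost without either pair are given beside the enzyme.

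**Figure D2:**
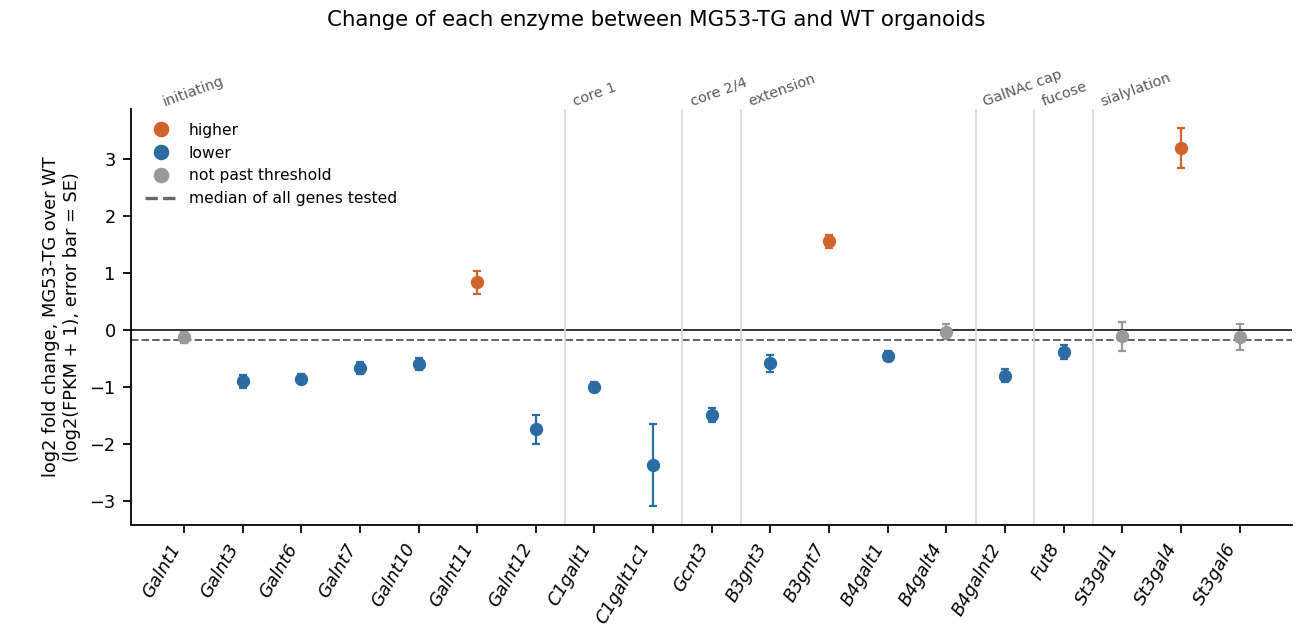
Log2 fold change of MG53-TG over WT for the 19 tested enzymes, grouped by step of the pathway, with the SE as error bar and the median of all genes tested (-0.17) as a dashed line. St3gal4, B3gnt7 and Galnt11 lie above 0, and the 12 enzymes that passed as lower lie below it.

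The 10 initiating GalNAc transferases differ in which peptides they prefer. Of these, 7 were tested, 5 fell, 1 rose and 1 did not pass, where 29.2% of all genes tested fell and 15.4% rose. The summed FPKM of the family was 141 ± 3.56 (SD, n = 4) among WT samples, against 93.5 ± 1.9 (SD, n = 4) in the MG53-TG samples.

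Galnt6 (ENSMUSG00000037280, GRCm38 chromosome 15, 100691813 to 100729376, minus strand) had the highest mean of the family. It was at 38.8, 37.9, 39.3 and 41.4 FPKM in WT samples 1 to 4, against 22.0, 22.2, 21.1 and 20.03 FPKM for MG53-TG samples 1 to 4. All MG53-TG samples lay within a narrow range well below the WT samples. On the log2 scale the difference was -0.85 (SE 0.0810, adjusted p = 7.92e-05 by limma), a fall of 45.8% in mean FPKM. Galnt7, which adds GalNAc to peptides that already carry one, was at 32.7, 36.2, 32.7 and 38.5 FPKM among WT samples, against 23.8, 22.1, 21.0 and 19.6 FPKM in the MG53-TG. It fell by 0.67 on the log2 scale (SE 0.0986, adjusted p = 0.000908 by limma).

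Galnt3, which is known for protecting the hormone FGF23 from cleavage, was at 18.7, 19.5, 25.1 and 22.0 FPKM in the WT. In the MG53-TG it was at 10.6, 10.1, 10.8 and 12 FPKM. The groups did not overlap, and the log2 fold change was -0.90 (SE 0.115, adjusted p = 0.000432 by limma). Galnt12, an enzyme of the digestive tract, had the largest fall of the family. It was at 9.004, 7.84, 7.07 and 7.06 FPKM among WT samples, against 2.71, 2.40, 1.11 and 0.694 FPKM in the MG53-TG. Samples MG53-TG 3 and 4 were the lowest, and the log2 fold change of -1.75 (SE 0.249, adjusted p = 0.000762 by limma) was -1.29 without these and -2.20 without samples 1 and 2. Galnt10, another enzyme that favours peptides already carrying GalNAc, fell by 0.60 on the log2 scale, from 6.48 ± 0.378 FPKM (SD, n = 4) to 3.95 ± 0.413 FPKM (SD, n = 4).

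Galnt11, an enzyme known for glycosylating Notch and megalin, was the family member that rose. It was at 6.92, 7.13, 6.86 and 3.61 FPKM among WT samples, against 9.67, 10.6, 12.8 and 13.0 FPKM in the MG53-TG. WT sample 4 was the lowest of the 8, and the groups did not overlap. This gave a log2 difference of 0.84 (SE 0.1995, adjusted p = 0.00945 by limma). The added FPKM came in part from a start at chr5:25247363-25247786, whose first exon holds coding bases in 1 of 5 annotated transcripts. That start was at 0.164 ± 0.0619 FPKM (SD, n = 4) among WT samples, against 3.64, 0.404, 4.83 and 0.173 FPKM for MG53-TG samples 1 to 4, so samples 1 and 3 were high and the others were not. On the highest single row of the gene the log2 fold change was 0.52 with a limma adjusted p of 0.138, and without samples MG53-TG 3 and 4 it came to 0.68 with a limma adjusted p of 0.0783. The increase of Galnt11 therefore did not pass under these settings.

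Galnt1, the broadly expressed member on chromosome 18, was at 24.6 ± 1.93 FPKM (SD, n = 4) among WT samples, against 22.4 ± 1.85 FPKM (SD, n = 4) in the MG53-TG and did not pass (log2 fold change -0.13, SE 0.0991, limma adjusted p = 0.323). Its log2 difference was 0.06 under median-of-ratios scaling and -0.78 with starts only (limma adjusted p = 0.178). Galnt5 was under the filter and listed only in WT samples 1, 2 and 3, at 0.483, 0.504 and 0.305 FPKM. Its MG53-TG values were absent rows counted as 0, so no test is given for it. Galnt2 and Galnt4 had no entry in the files used here. Galnt4 and Fut4 are single-exon genes, and of 1331 single-exon protein-coding genes 33 had an entry (2.48%), against 12132 of 20620 with several exons (58.8%).

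At the core 1 step, C1galt1 (ENSMUSG00000042460, GRCm38 chromosome 6, 7844842 to 7875687, plus strand) fell to 0.473 of its WT mean. It was at 19.6, 17.8, 18.3 and 19.7 FPKM among WT samples, against 8.77, 9.29, 8.55 and 9.04 FPKM in the MG53-TG. Spread within each group was small beside the gap between the groups. The fitted log2 difference was -1.001 (SE 0.0873, adjusted p = 5.10e-05 by limma).

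The chaperone gene C1galt1c1 was measured through a single start row at chrX:38634978-38635087. That row was at 6.30, 8.11 and 8.88 FPKM in WT samples 1 to 3 and 6.85 FPKM in MG53-TG sample 4, and it was absent from the other 4 samples. By the rule for absent rows WT sample 4 counted as missing and MG53-TG samples 1 to 3 as 0, which gave a log2 fold change of -2.38 (SE 0.717, adjusted p = 0.0294 by limma) with overlapping groups. With absent rows as missing the log2 fold change was -0.15 (adjusted p = 0.68 by limma), and with absent rows as 0 it was -1.60 (limma adjusted p = 0.178). Without samples MG53-TG 1 and 2 the limma adjusted p was 0.153. The rows under its identifier formed a locus that reached 88734 bases beyond the gene, over the neighbouring Cul4b, which had no entry of its own, so reads of these neighbours could not be told apart here. A fall of C1galt1c1 was therefore not established.

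Gcnt3, which forms core 2 and core 4 branches in mucin-producing epithelia, fell by 1.49 on the log2 scale (SE 0.119, adjusted p = 5.96e-05 by limma). The levels were 11.9, 11.9, 10.1 and 12.7 FPKM among WT samples, against 3.39, 3.75 and 3.33 FPKM in MG53-TG samples 1, 2 and 4. Sample MG53-TG 3 had no row that overlapped an exon of the gene and was dropped as missing from this fit. With the absent row as 0 the gene also passed, at a log2 fold change of -2.03 (adjusted p = 0.00754 by limma). Gcnt1, the core 2 enzyme of leukocytes and many other tissues, was under the filter. It was at 0.535, 0.443, 0.991 and 0.732 FPKM in the WT and listed in no MG53-TG sample. Its MG53-TG values were absent rows counted as 0, so no test is given for it. B3gnt6, the core 3 enzyme, had no entry in the files used here.

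Chain extension, too, had changes in both directions. B3gnt7, which lengthens chains of galactose and N-acetylglucosamine and acts on sulfated ones, rose in every MG53-TG sample. The gene (ENSMUSG00000079445, GRCm38 chromosome 1, 86302832 to 86307305, plus strand) was at 2.18, 1.53, 2.12 and 2.15 FPKM among WT samples, against 7.86, 7.52, 7.49 and 8.37 FPKM in the MG53-TG. The MG53-TG samples were close to each other and far above the WT samples. The log2 fold change was 1.56 (SE 0.115, adjusted p = 2.27e-05 by limma), and the ratio of means was 3.91.

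B3gnt3, the highest of the extension enzymes, which elongates core 1 chains, moved the other way. It was at 30.0, 26.1, 31.1 and 29.6 FPKM among WT samples, against 22.3, 23.3, 15.6 and 16.3 FPKM in the MG53-TG. Samples MG53-TG 3 and 4 were the lowest of the 8, and the log2 fold change was -0.59 (SE 0.146, adjusted p = 0.0117 by limma), -0.34 without them and -0.83 without samples 1 and 2. B4galt1, a galactosyltransferase of most cells, fell from 22.2 ± 0.8998 FPKM (SD, n = 4) to 15.8 ± 1.19 FPKM (SD, n = 4). B4galt4, which galactosylates sulfated N-acetylglucosamine, was at 8.80 ± 1.15 FPKM (SD, n = 4) and 8.58 ± 1.28 FPKM (SD, n = 4) and did not pass (limma adjusted p = 0.849). B3gnt5 was listed at 0.577 FPKM in WT sample 2 alone, and B3galt5 at 0.101 FPKM in WT sample 1. A further B3galt5 start in WT sample 3 (0.768 FPKM) was set aside since it overlapped no annotated exon of the gene.

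B4galnt2, which caps chains with GalNAc to make the Sd(a) antigen of the gut, had the highest mean of the list in the WT. The gene (ENSMUSG00000013418, GRCm38 chromosome 11, 95865943 to 95914891, minus strand) was at 71.2, 65.5, 72.4 and 73.5 FPKM among WT samples, against 41.8, 31.8, 44.1 and 43.6 FPKM in the MG53-TG. Each MG53-TG sample lay well below the lowest WT sample, and MG53-TG sample 2 was the lowest. On the log2 scale the difference was -0.80 (SE 0.117, adjusted p = 0.000846 by limma).

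Of the fucosyltransferases, Fut8 was the one that could be tested. Fut8 adds the core fucose of N-glycans and is not an enzyme of mucin O-glycans. It was at 27.8, 31.0, 32.0 and 29.3 FPKM among WT samples, against 19.0, 20.9, 25.6 and 26.3 FPKM in the MG53-TG. Samples MG53-TG 3 and 4 came close to the WT range. This gave a log2 difference of -0.38 (SE 0.122, adjusted p = 0.0315 by limma). Leaving out WT sample 2, 3 or 4 or MG53-TG sample 1 or 2 raised the limma adjusted p above the threshold, to between 0.0612 and 0.0766, and it was 0.349 under median-of-ratios scaling with a log2 fold change of -0.20. Without samples MG53-TG 1 and 2 Fut8 did not pass either (log2 fold change -0.20, limma adjusted p = 0.0921). Fut2, the secretor enzyme that places the terminal fucose on intestinal O-glycans, was under the filter. It was listed at 0.054, 0.642 and 0.0212 FPKM in WT samples 1, 3 and 4 and in no MG53-TG sample. Fut4 had no entry in the files used here. Of fucosyltransferases outside the 33, Fut1, an enzyme of the same linkage as Fut2, was at 1.44 ± 0.564 FPKM (SD, n = 4) in WT samples and 0.554 ± 0.574 FPKM (SD, n = 4) in MG53-TG samples and did not pass (limma adjusted p = 0.0751). Fut11 passed as lower, at -0.73 on the log2 scale (adjusted p = 0.0153 by limma). Both were named after their values were seen.

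Among the sialyltransferases, St3gal4 had the largest change of the 19 enzymes tested. St3gal4 adds sialic acid in α2,3 linkage to terminal galactose, mainly on N-acetyllactosamine chains, and takes part in making selectin ligands. The gene (ENSMUSG00000032038, GRCm38 chromosome 9, 35046576 to 35119268, minus strand) was at 28.9, 44.2, 38.6 and 45.5 FPKM among WT samples, against 373, 168, 492 and 575 FPKM in the MG53-TG. The groups lay far apart, and MG53-TG sample 2 was the lowest of its group. The fitted log2 difference was 3.21 (SE 0.351, adjusted p = 0.000179 by limma), which ranked 55 of 10370 genes by increase. Summed over its ends in place of its starts, the gene was at 21.2, 26.3, 35.8 and 31.5 FPKM among WT samples, against 121, 145, 304 and 331 FPKM in the MG53-TG, a ratio of means of 7.85 against 10.2 by starts. The log2 fold change by ends was 2.82, and by starts it was 2.67 without samples MG53-TG 3 and 4 and 3.75 without 1 and 2.

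**Figure D3:**
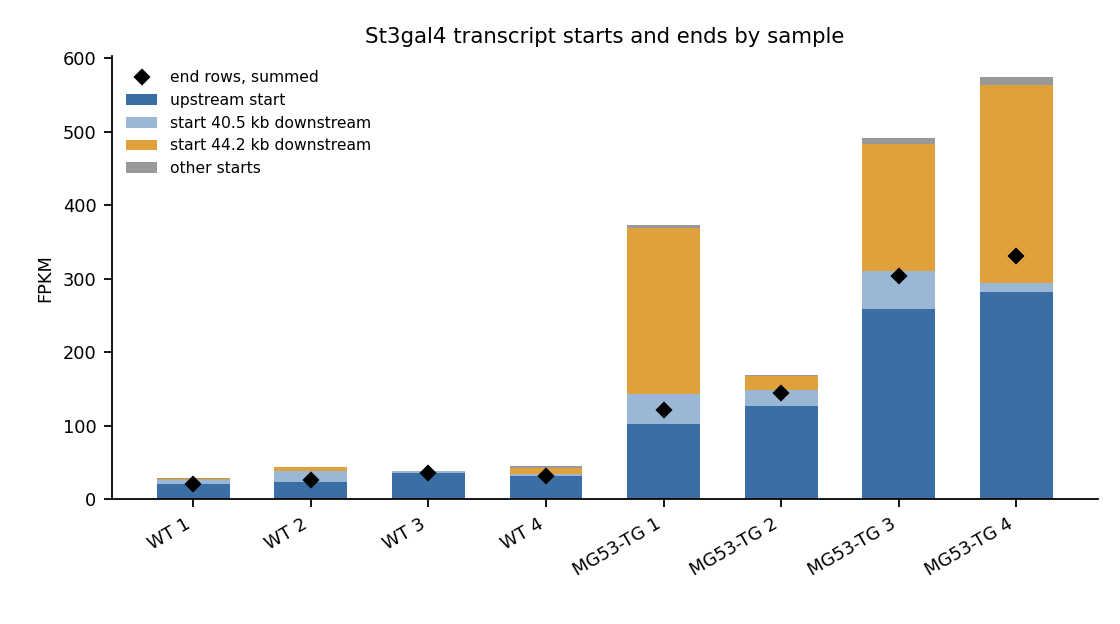
FPKM of St3gal4 by sample, stacked by transcript start (bars) and summed over transcript ends (diamonds). The upstream start rises from 21.2 to 35.8 FPKM in the WT samples to 102 to 282 FPKM among MG53-TG samples, while the start 44.2 kb downstream reaches 225 FPKM in MG53-TG sample 1 and 18.6 FPKM in sample 2.

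The starts of St3gal4 shared the increase unevenly. The upstream start at chr9:35116698-35116873, an exon with no coding bases, was at 28.0 ± 6.78 FPKM (SD, n = 4) among WT samples, against 102, 126, 259 and 282 FPKM in the MG53-TG. Another start lies at chr9:35072571-35072631, 44242 bases downstream of it, and is the first exon of 1 of 9 annotated transcripts, with coding bases in it. This start was at 1.67, 5.84, 0.00487 and 9.38 FPKM among WT samples, against 225, 18.6, 173 and 269 FPKM in the MG53-TG. All of the MG53-TG samples were above the WT samples at this start, but sample 2 was far below the others. Its share of the gene was 9.90% ± 8.95 (SD, n = 4) among WT samples, against 38.4% ± 20.9 (SD, n = 4) in the MG53-TG, the largest change among the 15 enzyme starts tested. By limma the difference had an adjusted p of 0.353 and did not pass. The start and end sums of the gene differ most in the samples where this start is high. In all, 15 starts of 7 enzymes were tested and 0 passed, of which 1 had an unadjusted p under 0.05 by limma. Over all genes 30 of 4418 starts (0.679%) passed, and 486 had an unadjusted p under 0.05. The 30 became 0 with a block for replicate number and 9 when WT sample 4 was left out. No end of an enzyme met the criteria, and of 913 ends tested 0 passed (0%), with 120 at an unadjusted p under 0.05 by limma.

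The other sialyltransferases did not follow St3gal4. St3gal6, which also acts on N-acetyllactosamine chains, was at 27.5, 22.7, 26.9 and 24.7 FPKM among WT samples, against 31.8, 31.9, 15.9 and 17.9 FPKM in the MG53-TG. Samples MG53-TG 1 and 2 were above and 3 and 4 below all WT samples, and the gene did not pass (log2 fold change -0.12, SE 0.230, limma adjusted p = 0.686). Without samples 3 and 4 its log2 fold change was 0.32 (adjusted p = 0.0478 by limma), and without 1 and 2 it was -0.56 (limma adjusted p = 0.00503), so its direction depends on which pair is used. The pairs were told apart in these same data, so these p-values only describe the split. A start of this gene at chr16:58523317-58523444 was at most 0.00456 FPKM among WT samples, against 7.83, 3.02, 0.831 and 0.00453 FPKM in the MG53-TG. St3gal1, which sialylates core 1, was low in both groups, at 1.05 ± 0.215 FPKM (SD, n = 4) and 0.989 ± 0.652 FPKM (SD, n = 4). St6gal1 had a start in WT sample 1 alone (0.445 FPKM) and an end in WT sample 4 alone (0.427 FPKM), and St6galnac6 was listed in MG53-TG sample 3 alone (0.122 FPKM). St6galnac1 and the sulfotransferases Chst4 and Chst5 had no entry in the files used here.

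**Figure D4:**
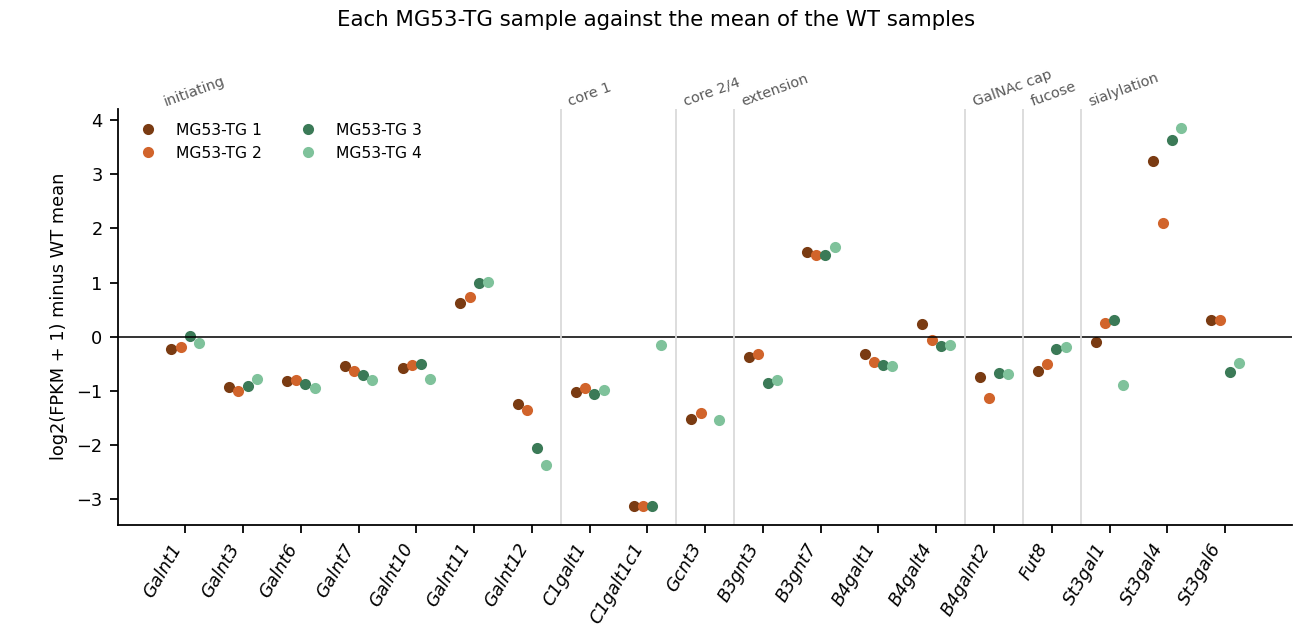
Each MG53-TG sample as its log2(FPKM + 1) minus the mean of the WT samples, for the 19 tested enzymes. Samples 3 and 4 lie below 1 and 2 for Galnt12, B3gnt3 and St3gal6 and above them for St3gal4, Galnt11 and Fut8, while C1galt1, Galnt6 and B3gnt7 are close in all 4 samples.

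Promoter windows are shown to place the measured starts of some of the enzymes that passed. Windows of 300 bases, from 250 before to 50 after a RefSeq start (GRCm38.p6), were given for 23 of the 33 genes. Shown here are the 3 enzymes that rose and, of those that fell, the 3 with the highest mean FPKM whose strongest measured start lies in its window, which are not the 3 largest falls. The windows are chr9:35116815-35117114 (minus strand) for St3gal4, chr1:86302971-86303270 (plus) for B3gnt7, chr5:25222622-25222921 (plus) for Galnt11, chr11:95914822-95915121 (minus) for B4galnt2, chr15:100729327-100729626 (minus) for Galnt6 and chr8:57653006-57653305 (minus) for Galnt7. Each is printed 5′ to 3′ on the strand of the gene, and capitals mark matches to any of 4 motifs searched on both strands.
St3gal4 promoter: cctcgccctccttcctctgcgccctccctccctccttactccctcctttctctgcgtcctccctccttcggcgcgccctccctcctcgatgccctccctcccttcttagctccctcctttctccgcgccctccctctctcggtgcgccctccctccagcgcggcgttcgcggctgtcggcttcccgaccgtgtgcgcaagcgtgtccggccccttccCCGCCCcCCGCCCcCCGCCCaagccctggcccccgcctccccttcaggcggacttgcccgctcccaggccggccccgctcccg
B3gnt7 promoter: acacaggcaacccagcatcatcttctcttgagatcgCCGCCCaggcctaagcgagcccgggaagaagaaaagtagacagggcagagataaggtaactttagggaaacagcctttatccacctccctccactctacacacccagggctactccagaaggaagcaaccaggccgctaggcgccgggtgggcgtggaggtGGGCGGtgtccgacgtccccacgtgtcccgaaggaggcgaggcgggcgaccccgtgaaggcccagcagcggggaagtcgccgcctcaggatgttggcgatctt
Galnt11 promoter: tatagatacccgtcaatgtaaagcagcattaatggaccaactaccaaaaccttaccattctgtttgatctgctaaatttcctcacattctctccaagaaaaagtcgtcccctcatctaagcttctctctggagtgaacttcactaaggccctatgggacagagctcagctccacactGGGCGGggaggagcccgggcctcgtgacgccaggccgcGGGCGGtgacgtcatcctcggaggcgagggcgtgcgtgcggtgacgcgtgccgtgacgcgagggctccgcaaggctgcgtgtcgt
B4galnt2 promoter: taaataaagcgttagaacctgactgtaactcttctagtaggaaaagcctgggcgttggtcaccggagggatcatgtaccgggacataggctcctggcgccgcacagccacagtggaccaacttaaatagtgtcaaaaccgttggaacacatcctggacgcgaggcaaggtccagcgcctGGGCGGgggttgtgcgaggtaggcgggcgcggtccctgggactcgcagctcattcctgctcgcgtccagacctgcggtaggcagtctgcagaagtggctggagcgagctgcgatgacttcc
Galnt6 promoter: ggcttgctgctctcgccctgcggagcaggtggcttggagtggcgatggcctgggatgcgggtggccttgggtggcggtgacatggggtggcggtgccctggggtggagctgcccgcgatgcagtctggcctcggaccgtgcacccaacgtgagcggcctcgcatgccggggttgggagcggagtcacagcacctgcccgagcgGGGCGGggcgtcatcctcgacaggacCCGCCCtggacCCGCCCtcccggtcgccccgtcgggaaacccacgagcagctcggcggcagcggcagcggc
Galnt7 promoter: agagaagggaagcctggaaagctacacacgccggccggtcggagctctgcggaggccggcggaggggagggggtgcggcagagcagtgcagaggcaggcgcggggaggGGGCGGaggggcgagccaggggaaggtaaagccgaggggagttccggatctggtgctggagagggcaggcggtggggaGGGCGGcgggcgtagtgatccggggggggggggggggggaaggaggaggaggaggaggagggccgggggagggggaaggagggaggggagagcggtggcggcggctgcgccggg

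The strongest measured start lay 9 bases upstream of the RefSeq start in St3gal4, 13 bases downstream in B3gnt7, 10 bases downstream in Galnt11, 20 bases upstream in B4galnt2 and 24 bases downstream in Galnt7, and coincided with it in Galnt6. For C1galt1 it lay 382 bases upstream, outside the window. The motifs were GGGCGG (the SP/KLF box), TATAAA (the TATA box), AGGTCA (the core of nuclear receptor elements) and TTTATGG (the CDX type site), where the complement of TATAAA begins with the same letters as TTTATGG. All capitals in the 6 windows are GGGCGG or its complement, with 3 matches in St3gal4, 2 in B3gnt7, 2 in Galnt11, 1 in B4galnt2, 3 in Galnt6 and 2 in Galnt7. Over all 35 windows of the enzymes GGGCGG matched in 17, TATAAA in 1, AGGTCA in 2 and TTTATGG in 0. Of all 32851 RefSeq windows of this length GGGCGG matched in 35.7%, TATAAA in 13.6%, AGGTCA in 16.3% and TTTATGG in 2.75%. A match describes the letters in the window and no more, and the windows of enzymes that rose and of those that fell both held GGGCGG.

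The genes that supply or receive these chains were described from further lists. Among 57 other glycosyltransferases and sulfotransferases 18 were tested, of which 5 rose, 5 fell and 8 did not pass (median log2 fold change -0.10). For comparison, 15.4% of all genes tested rose and 29.2% fell. The counts include Gal3st2 and St3gal3, which reached the filter only through the group where they are high. The largest increases were those of Gal3st2, which sulfates galactose on mucin chains, and of Gal3st1, which makes sulfatide. Gal3st2 had a log2 fold change of 2.01 (0.477 ± 0.167 FPKM among WT samples, against 4.92 ± 0.517 FPKM in the MG53-TG, SD, n = 4), and Gal3st1 was at 0.81. With a WT mean under 0.5 FPKM, Gal3st2 reached the filter through the MG53-TG samples alone, so no test is given for it. The largest decreases were St3gal3, a sialyltransferase of N-acetyllactosamine chains, at -1.35 (1.89 to 0.155 FPKM), and B3galnt2, which acts on α-dystroglycan, at -1.04 (15.7 to 7.14 FPKM). St3gal3 had a row in 1 of the 4 MG53-TG samples (0.6203 FPKM) and counted as 0 in the others. It thus reached the filter through the WT samples alone, so no test is given for it. With absent rows as missing its log2 difference was -0.83.

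Sugar nucleotides and sulfate donors feed the transferases. Of 27 genes for their synthesis and transport 24 were tested, of which 5 fell, 1 rose and 18 did not pass (median -0.20). Among all genes tested 29.2% fell and 15.4% rose, with a median of -0.17. Papss2, which makes the sulfate donor PAPS, was the gene that rose, with a log2 fold change of 1.39, from 2.98 ± 0.655 FPKM to 10.2 ± 5.04 FPKM (SD, n = 4). The log2 fold change was 1.92 without samples MG53-TG 1 and 2 and 0.87 without 3 and 4, and Papss2 passed both times. The largest decreases of those listed were Slc35a1, the Golgi carrier of CMP-sialic acid, at -0.75 (17.1 to 9.85 FPKM), and Pgm2, a phosphoglucomutase, at -0.68 (36 to 22.3 FPKM).

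Of 18 genes for mucins and other mucus proteins 11 were tested, of which 5 fell, 1 rose and 5 did not pass (median -0.44). The shares over all genes tested were 29.2% lower and 15.4% higher. Muc3a is among the 5 that fell, from 2.40 to 0.474 FPKM. It reached the filter through the WT samples alone, so no test is given for it. Agr2, a disulfide isomerase needed to fold mucins, fell by 2.66 on the log2 scale, from 88.1 ± 12.8 FPKM to 13.6 ± 4.94 FPKM (SD, n = 4). Muc2, the gel-forming mucin of the intestine and the main carrier of O-glycans there, fell by 1.55 on the log2 scale, from 25.3 ± 3.71 FPKM to 8.94 ± 4.69 FPKM (SD, n = 4). The log2 fold change of Muc2 was -0.96 without samples MG53-TG 1 and 2 and -2.13 without 3 and 4, and it passed both times. Tff1, a trefoil peptide, was the gene that rose (log2 fold change 1.18, limma adjusted p = 0.0455), and its groups overlapped. It no longer passed in 11 of its alternatives.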

How the data were processed

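RNA sequencing of 8 organoid samples (4 WT, 4 MG53-TG) was used. Per the labels, the submitters' processing notes name cutadapt 1.9.1, HISAT2 2.0.1, HTSeq 0.6.1, DESeq2 and the build mm10. The authors deposited FPKM per transcript event and sample, and the study's methods credit the normalization to a tool written Heseq, of the same version as HTSeq in the notes. How the values per event were made is not given in the sources used here. The smallest FPKM was 1e-06, from which no read numbers could be derived. Depth is therefore unknown and no count test was run. The FPKM summed over starts was between 269094 and 284330 per sample.

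Rows were assigned to a gene by their Ensembl identifier and by overlap with an exon of it in GENCODE M21 of GRCm38, which held for 87.3% of the start and end rows. A row absent from a sample counted as missing where the rest of its group reached a median of 0.5 FPKM, and as 0 elsewhere. Genes whose mean FPKM reached 0.5 were compared as log2(FPKM + 1) in R 4.3.3 with limma 3.58.1 (functions lmFit and eBayes, the latter with a trend), and p-values were adjusted by Benjamini-Hochberg, with 0.05 as threshold. The share of a start or end in its gene was compared by limma on the arcsine square root scale, for rows listed in all samples, gene sums of at least 2 FPKM and mean shares between 5% and 95%. The tests are two-sided. Python 3.11.15 with pandas 2.3.3 and numpy 2.4.6 was used for the rest. In data simulated for the comparison of genes (10045 genes, 200 changed), 82% of changes of 1.5 and 39% of changes of 0.75 on the log2 scale were recovered, and 6 unchanged genes were called. In the measured data 4635 of 10370 genes were called, a far larger share, so these rates need not hold there.

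Values in every sample were given for enzymes past the threshold with groups that did not overlap and an absolute log2 fold change of at least 0.6, and for the highest of each role. Of the other lists the 2 largest increases and 2 largest decreases past the threshold were named, whether or not a test is given for them. A further donor supply gene was left out of its list and is not reported here. The rest of the 33 were given by mean, range or single values. The members and lists were chosen with earlier results of these data known, so counts over them are descriptions. Alternatives were a pseudocount of 0.1, no filter, a filter at 2 FPKM, median-of-ratios and quantile scaling, a replicate block, sample weights, omission of single samples, starts or ends only and absent rows as 0. Another 6 were chosen after seeing the data, among them absent rows as missing, the highest single row of any event type, and leaving out MG53-TG samples 1 and 2 or 3 and 4.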

Additional observations from a re-analysis of the deposited data

Results flagged for a closer look

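A sample far from the other 3 of its group was looked for in 43 groups of 4 values of the enzymes, and 8 were found. Chance gives about 1 in 20 for measured values, a rate that does not apply to genes with 1 listed sample and 3 at 0, where the gap is fixed by the zeros. Galnt11 was at 3.61 FPKM in WT sample 4 and B3gnt7 at 1.53 FPKM in WT sample 2, each below the other WT samples. Fut2 was at 0.642 FPKM in WT sample 3, above the other WT samples. The other 5 had a value above 0 in 1 sample of the group by the rows summed here, namely C1galt1c1 (6.85 FPKM in MG53-TG sample 4), B3gnt5 (0.577 FPKM in WT sample 2), B3galt5 (0.101 FPKM in WT sample 1), St6gal1 (0.445 FPKM in WT sample 1, with an end row in WT sample 4 not counted) and St6galnac6 (0.122 FPKM in MG53-TG sample 3).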

How the results depend on the processing

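The number of genes that differed was 4635 and lay between 3494 and 5624 under the alternatives. Of the enzymes, 3 rose in all settings except ends only and the highest single row (2 each), and without MG53-TG samples 3 and 4 the 3 were St3gal4, B3gnt7 and St3gal6, the last in place of Galnt11. Between 9 (ends only) and 14 (no filter) fell. The 14 include Galnt5 and Gcnt1, which were listed in WT samples alone and for which no test is given. With ends only, Galnt7, Galnt12, C1galt1c1 and, among those that rose, Galnt11 could not be tested. Leaving out 1 sample gave 3683 to 4908 genes, 3 enzymes higher and 10 to 12 lower. Of 450 values of the 19 enzymes under an alternative, 416 kept direction and side of the threshold, 20 lost the threshold, 1 gained it without a change of sign (St3gal6 without MG53-TG samples 1 and 2) and 13 changed sign, all of these in enzymes that did not pass. One of the 13, St3gal6 without samples 3 and 4, passed in the new direction, in a split chosen after seeing the data. For B4galt4 (-0.04) the log2 fold change was 0.14 with median-of-ratios scaling, 0.13 with quantile normalization, 0.00176 with starts only, 0.0867 without MG53-TG samples 3 and 4, and between -0.12 and 0.03 when each sample was left out, with 0.0340, 0.00938 and 0.00169 without WT 3, MG53-TG 3 and MG53-TG 4. Median-of-ratios scaling gave 0.0584 for Galnt1 and 0.0608 for St3gal6, and without MG53-TG samples 3 and 4 St3gal6 was at 0.32 and St3gal1 at 0.0776. Leaving out each sample gave -0.246 to 0.152 for St3gal1 (the latter without MG53-TG 4) and -0.271 to 0.0496 for St3gal6 (the latter without MG53-TG 3). With the replicate block, 4225 genes differed, with 3 enzymes higher and 12 lower. The numbers did not pair the samples (correlations of deviations -0.051 to 0.0936). Start shares passing fell from 30 to 0 with the replicate block, were 42 with absent rows as 0, and were 9 to 37 when a sample was left out (9 without WT 4, 15, 18 and 19 without MG53-TG 4, 3 and 1). End shares passing were 0, were 3 with absent rows as 0, and 0 to 2 when a sample was left out. The causes were not tested. FPKM without counts limits what can be said of enzymes under 1 FPKM.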
